A study of Danio rerio with 16 samples.

Results

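The genes described here were 4 genes of GABA and glutamate signalling in the heads of zebrafish larvae: gabra6a, gabra4, grin1b and abat. They were measured by 6 probes, since grin1b had 3 probes and the other genes 1 each. The genes were chosen by their measured change: a probe had to stand in one of the deposited lists, which hold probes that changed more than 1.5-fold at an unadjusted p under 0.05, and its RefSeq accession had to carry one of the 4 symbols. All 6 probes were listed in D3MO against SCMO and 0 in the other comparisons. The lists held 625 of the 20080 probes in the table, and 478 of those 625 could be named, for 333 genes. Values of the 4 genes are therefore given as a description, with standard errors (SE) and 95% intervals, and no test is claimed for them.

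Wild-type zebrafish of the WIK strain were injected into the yolk with 1 of 3 antisense morpholino preparations, which block translation for a time and leave the messenger RNA in place. D3MO larvae received a morpholino against deiodinase type 3 (dio3b), the enzyme that inactivates thyroid hormone. D1D2MO larvae received morpholinos against the deiodinases of type 1 and type 2 together, which produce the active hormone T3, and SCMO larvae were injected with the standard control morpholino. All larvae were dissected at 72 hours post fertilization, and the head region held the brain, the sacculi with the otoliths and the jaw. Transcripts of photoreceptors were also measured in these heads, so the values are not of the brain alone. RNA from 4 pools per condition, each of 20 heads, was compared on 16 2-colour Agilent arrays: 6 paired D3MO with SCMO, 6 D1D2MO with SCMO and 4 D3MO with D1D2MO, with each orientation of the dyes on an equal number. Larvae of a condition were reared together in dishes, and whether the intervals given below hold the spread between pools or between arrays is not stated in the sources used here, since 12 pools filled 32 channels. The fit had 7.79 degrees of freedom, fewer than 16 arrays or 12 pools would leave with 1 level per condition. The intervals may therefore leave out the spread between pools. Values of single pools and arrays were not analysed here, and no level per pool can be given.

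GABA and glycine are the main inhibitory transmitters of the vertebrate brain, and glutamate is the main excitatory one. GABA opens chloride channels built from several subunits, whose alpha subunits set where the receptor sits and how it responds, and glutamate acts on NMDA, AMPA and metabotropic receptors. Neurons make GABA from glutamate, load it into vesicles, take it up again after release and break it down with GABA transaminase. Thyroid hormone is known to be needed for the maturation of neurons and synapses in the vertebrate brain, the cerebellum included.

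All 4 genes had lower signal in D3MO heads than in SCMO heads, at 49.4 to 61.2% of the SCMO level over the 6 probes. In D1D2MO heads each was also lower than in SCMO heads, at 68.8 to 83.8% of the SCMO level. D3MO heads were below D1D2MO heads for every probe, and all 18 values of the 6 probes in the 3 comparisons had a 95% interval that did not reach 0. In D3MO against SCMO this was fixed by the choice of the probes, since a listed p under 0.05 amounts to such an interval. The other comparisons share a condition with that one, so nothing is read from this count. The 3 comparisons come from a single fit, the first and second share the SCMO pools, and the value of D3MO against D1D2MO is the difference of the other values, so they do not count as separate evidence. In such bulk RNA, fewer cells that express a gene and less RNA per cell cannot be told apart.

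**Figure D1:**
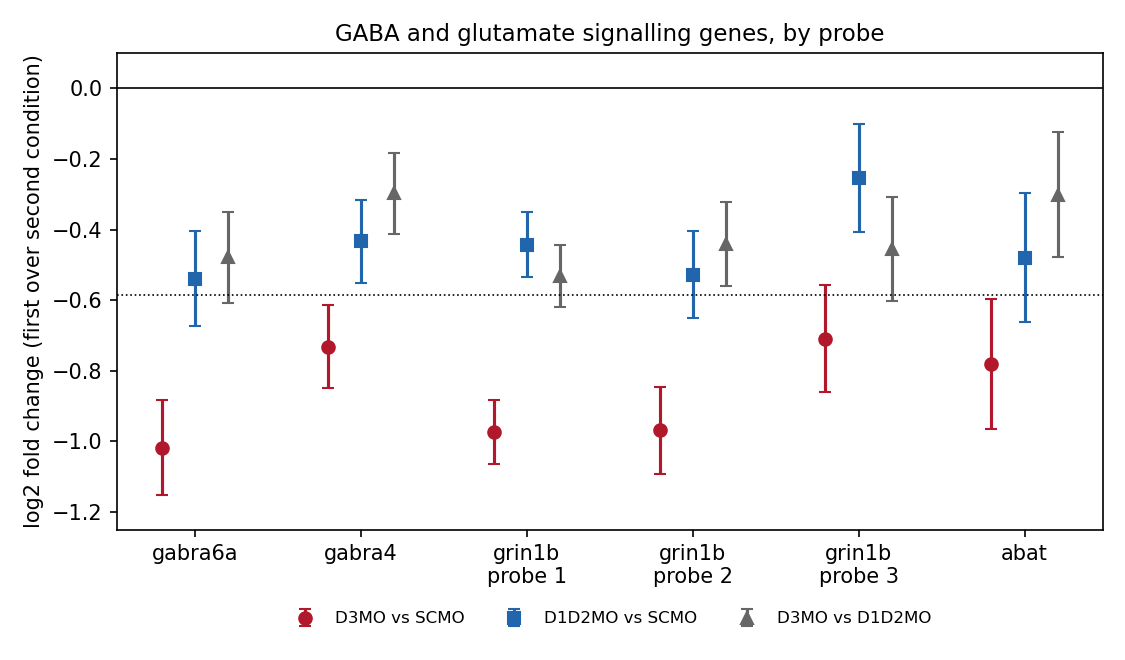
Log2 fold change (y axis, first condition over second) of each probe (x axis) in D3MO against SCMO (circles), D1D2MO against SCMO (squares) and D3MO against D1D2MO (triangles), with 95% intervals as bars, a solid line at 0 and a dotted line at a 1.5-fold decrease. All 6 circles lie below the dotted line, between -1.02 and -0.71, and all squares and triangles lie between it and 0.

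The gene with the lowest value was gabra6a, which encodes the alpha6 subunit of the GABA-A receptor. In mammals this subunit is made mostly by the granule cells of the cerebellum. Its probe (A_15_P109397, NM_200731) had a log2 fold change of -1.02 (SE 0.0581, 95% interval -1.15 to -0.88) in D3MO against SCMO, or 49.4% of the SCMO level with an interval of 45.0 to 54.2%. Its value in D1D2MO against SCMO was -0.54 (SE 0.0581, interval -0.67 to -0.40), or 68.8% of the SCMO level. The direct comparison of D3MO with D1D2MO gave -0.48 (SE 0.0561, interval -0.61 to -0.35), so D3MO heads held 71.7% of the D1D2MO level. Counted from the most negative value, gabra6a stood at rank 132 of 20080 probes in D3MO against SCMO, at 158 in D1D2MO against SCMO and at 246 in D3MO against D1D2MO. It was also a dim probe: its average log2 intensity of 7.13 lay at the 4.00th percentile of the listed probes. The gabra6a interval in D3MO against SCMO overlapped those of the brighter grin1b probes, -1.06 to -0.88 and -1.09 to -0.85. Which of these genes was lowest is therefore not resolved.

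The second GABA-A subunit, gabra4, encodes alpha4, which in mammals forms receptors outside the synapse, among other places in the thalamus and the dentate gyrus. Its probe (A_15_P170866, NM_001017822) gave -0.73 (SE 0.0511, interval -0.85 to -0.61) in D3MO against SCMO, 60.2% of the SCMO level. The decrease was smaller in D1D2MO against SCMO, at -0.43 (SE 0.0511, interval -0.55 to -0.32), 74.0% of the SCMO level. D3MO lay below D1D2MO by a log2 difference of -0.30 (SE 0.0493, interval -0.41 to -0.18), a smaller step than for gabra6a, whose interval overlaps it. Its ranks from the most negative value were 242, 281 and 761 of 20080 in the same 3 comparisons.

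The gene grin1b encodes GluN1, the subunit that every NMDA receptor needs and that binds the co-agonist glycine. Zebrafish carry a pair of such genes, grin1a and grin1b. The 3 probes of grin1b (NM_001144131) are numbered here by falling intensity. Probe 1 (A_15_P304756) gave -0.97 (SE 0.0393, interval -1.06 to -0.88) in D3MO against SCMO, 50.9% of the SCMO level. In D1D2MO against SCMO it gave -0.44 (SE 0.0393, interval -0.53 to -0.35), 73.6% of the SCMO level. The step between D3MO and D1D2MO was -0.53 (SE 0.0379, interval -0.62 to -0.44) on this probe, the most negative among the 6 probes. Probe 2 (A_15_P380070) gave nearly the same value in D3MO against SCMO, -0.97 (SE 0.0530), and -0.53 (SE 0.0531) in D1D2MO against SCMO. Probe 3 (A_15_P117131), the dimmest of them at an average log2 intensity of 7.61 against 9.75 for probe 1, gave smaller changes: -0.71 (SE 0.0658) in D3MO against SCMO and -0.25 (SE 0.0658) in D1D2MO against SCMO.

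The 3 probes thus spread over 0.26 log2 units in D3MO against SCMO and over 0.27 in D1D2MO against SCMO, several times their standard errors. They lay much closer in D3MO against D1D2MO, at -0.53, -0.44 and -0.45, a spread of 0.09. On all 3 the order was D3MO lowest, D1D2MO between, SCMO highest. Cross-hybridization between grin1a and grin1b transcripts was not tested.

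The remaining gene, abat, encodes GABA transaminase, the mitochondrial enzyme that breaks GABA down. Its probe (A_15_P108929, NM_201498) was bright, with an average log2 intensity of 11.5 at the 90.7th percentile of the listed probes. It gave -0.78 (SE 0.0793, interval -0.96 to -0.60) in D3MO against SCMO, 58.2% of the SCMO level. In D1D2MO against SCMO it gave -0.48 (SE 0.0793, interval -0.66 to -0.30), 71.7% of the SCMO level. D3MO against D1D2MO gave -0.30 (SE 0.0765, interval -0.48 to -0.12). The standard errors of abat were the widest among the 6 probes, against a median of 0.0550 for all probes in D3MO against SCMO.

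The average intensity and the fold changes together imply a level for each condition. For gabra6a the implied log2 intensities were 6.60 in D3MO, 7.08 in D1D2MO and 7.62 in SCMO heads. For gabra4 they were 7.74 in D3MO, 8.04 in D1D2MO and 8.47 in SCMO heads. Probe 1 of grin1b stood at 9.22 in D3MO, 9.75 in D1D2MO and 10.19 in SCMO heads. On these probes D1D2MO lay between the others, which restates the fold changes above and adds no evidence to them. For abat the implied values were 11.1 in D3MO, 11.4 in D1D2MO and 11.9 in SCMO heads. Intensity depends on the probe, so these levels were compared between conditions and never between genes.

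**Figure D2:**
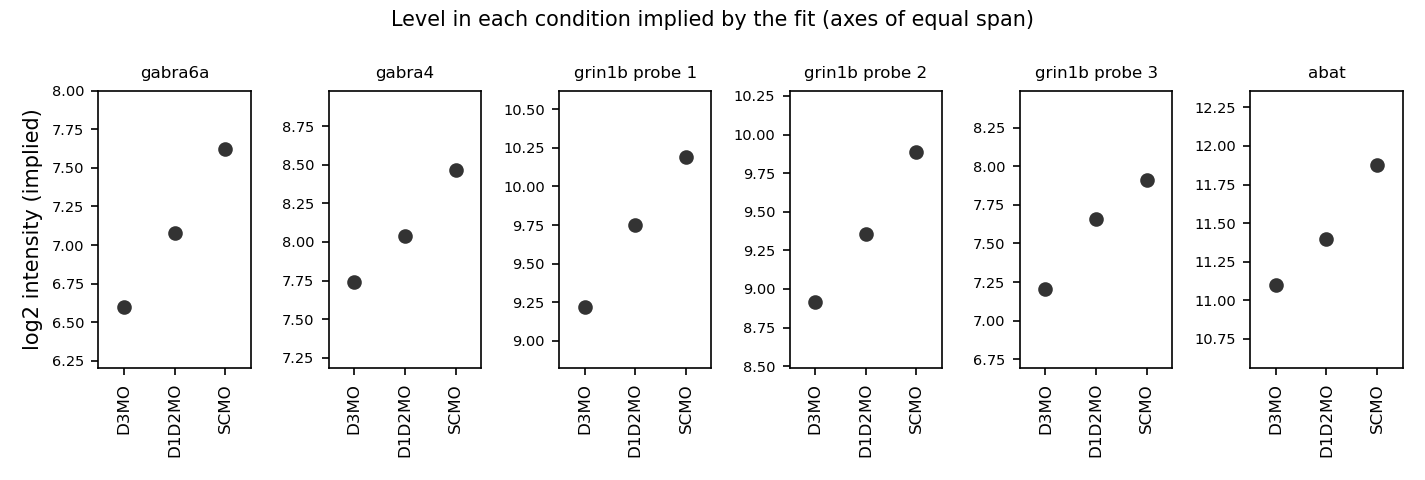
Log2 intensity implied by the fit (y axis) for each of the 6 probes in D3MO, D1D2MO and SCMO heads (x axis), as points on axes of equal span, without error bars because values of single pools were not analysed here. Each probe is lowest in D3MO and highest in SCMO heads, for gabra6a at 6.60 and 7.62.

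Among the 4 genes, 4 were lower and 0 higher in D3MO against SCMO past an adjusted p of 0.05 (Benjamini-Hochberg over all 20080 probes) and a 1.5-fold change. In that comparison 1.99% of all probes passed both thresholds in the lower direction, and 19.7% passed the adjusted p alone, but the genes were chosen on it and nothing is read from the count. In D1D2MO against SCMO 0 of the 4 genes passed both thresholds, where 0.652% of all probes did, and 4 of 4 passed the adjusted p alone, where 6.53% of all probes did. In D3MO against D1D2MO the counts were again 0 of 4 past both thresholds, beside 0.782% of all probes, and 4 of 4 past the adjusted p alone, beside 11.9%. Each of these comparisons shares a condition with the one that chose the genes, so nothing is read from these counts either. The median log2 fold change of the 4 genes, with the brightest probe for grin1b, was -0.88 in D3MO against SCMO, -0.46 in D1D2MO against SCMO and -0.39 in D3MO against D1D2MO. The medians of all probes were -0.00, 0.00 and -0.01 in these comparisons.

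The 1.5-fold threshold lies at 0.58 on the log2 scale. Among the 6 probes the value just inside it was that of grin1b probe 3 in D3MO against SCMO, -0.71, and the nearest value outside was that of gabra6a in D1D2MO against SCMO, -0.54. Both the second probe of grin1b in D1D2MO against SCMO and the first in D3MO against D1D2MO followed at -0.53. In the comparisons where they were not listed, the 6 probes ran from -0.54 to -0.25.

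Other genes of the same signalling were taken from a list of 138 symbols in 9 roles, of which 15 genes with 18 probes could be named, the 4 genes above included. Names were at hand only for listed probes, so a gene of the list without a name here has no known value and the named genes had to have changed in some comparison. In D3MO against SCMO 14 of the 15 were lower past both thresholds and 0 higher. Each of these 14 was named through its low value there, so nothing is read from the list's counts in that comparison. Among all 333 named genes 199 were lower and 102 higher in that comparison, 62 were lower in D1D2MO against SCMO and 81 were lower in D3MO against D1D2MO. Of the 11 genes beside the 4 described above, 10 were lower in D3MO against SCMO, 1 in D1D2MO against SCMO and 0 in D3MO against D1D2MO, with medians of -0.65, -0.38 and -0.26. The medians of all named genes were -0.63, -0.28 and -0.29 in these comparisons.

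GABA-A receptor subunits had 3 named genes of 24 symbols, and all 3 were lower in D3MO against SCMO, beside 199 of all 333 named genes. Each was named through its low value in that comparison, so nothing is read from this count. Besides gabra6a and gabra4 the named subunit was gabrb2a (beta2), at -0.67 (SE 0.0519) in D3MO against SCMO. Its value was -0.41 (SE 0.0519) in D1D2MO against SCMO. The gap between gabra6a and gabrb2a was wider in D3MO against SCMO than in D1D2MO against SCMO, a difference between genes that was not tested.

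The synthesis, vesicle loading, uptake and breakdown of GABA had 4 named genes of 11 symbols, and abat had the lowest value among them in D3MO against SCMO. The plasma membrane transporter slc6a1a (GAT1), which takes GABA back up, stood at -0.69 (SE 0.0766) in D3MO against SCMO. The vesicular transporter slc32a1 stood at -0.60 (SE 0.0574) and the synthetic enzyme gad1b (glutamate decarboxylase) at -0.59 (SE 0.113), just inside the threshold. In D1D2MO against SCMO the order differed: slc32a1 stood lowest at -0.52, followed by abat at -0.48, slc6a1a at -0.42 and gad1b at -0.38. In D3MO against D1D2MO the intervals of slc32a1, -0.20 to 0.06, and gad1b, -0.46 to 0.04, reached across 0. Those of abat, -0.48 to -0.12, and slc6a1a, -0.44 to -0.10, did not, but they overlapped the intervals of slc32a1 and gad1b. Differences between these genes were not tested.

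Among NMDA receptor subunits 2 of 13 symbols were named. The paralogue grin1a stood at -0.67 (SE 0.0546) in D3MO against SCMO and at -0.43 (SE 0.0546) in D1D2MO against SCMO. In D1D2MO against SCMO it thus matched probe 1 of grin1b, at -0.44, within 1 standard error. Probe 2, at -0.53, and probe 3, at -0.25, lay more than 1 standard error from it, on opposite sides. In D3MO against D1D2MO grin1a gave -0.24 (interval -0.36 to -0.12) and the 3 grin1b probes -0.53 to -0.44, with the interval of probe 1 below that of grin1a. The intervals of probe 2, -0.56 to -0.32, and probe 3, -0.60 to -0.31, overlapped that of grin1a, and the difference between the paralogues was not tested.

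The other glutamate and glycine genes were also lower. The AMPA receptor subunit gria2b stood at -0.59 (SE 0.0410) and the metabotropic receptor grm6b, which in mammals serves the ON bipolar cells of the retina, at -0.63 (SE 0.0505) in D3MO against SCMO. The glycine receptor subunit glrbb stood at -0.69 (SE 0.0633) on its brighter probe and the scaffold protein dlg2 at -0.65 (SE 0.0622). The glutamate transporter slc1a7a (EAAT5), found in mammals chiefly in the retina, stood at -0.79 (SE 0.0625) in D3MO against SCMO and at -0.29 (SE 0.0625) in D1D2MO against SCMO.

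Glutamine synthetase, glula, belongs in the brain to astroglia rather than neurons, and its order of the knockdowns was not resolved. It stood at -0.57 (SE 0.0353) in D3MO against SCMO, just outside the threshold, and at -0.64 (SE 0.0353) in D1D2MO against SCMO, where it was the single gene of the 15 past both thresholds. D3MO against D1D2MO gave 0.08 for glula, with an interval of -0.00056 to 0.16, which includes 0. Over the 18 probes of the list, 17 had lower values in D3MO than in D1D2MO heads, all but that of glula. Of these 17, 15 had an interval that did not reach 0, all but gad1b and slc32a1. All 17 were listed through a low value in D3MO against SCMO, which enters this difference, so nothing is read from these counts. Beside them, 11.9% of all probes and 191 of the 333 named genes were lower past the adjusted p alone in D3MO against D1D2MO.

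**Figure D3:**
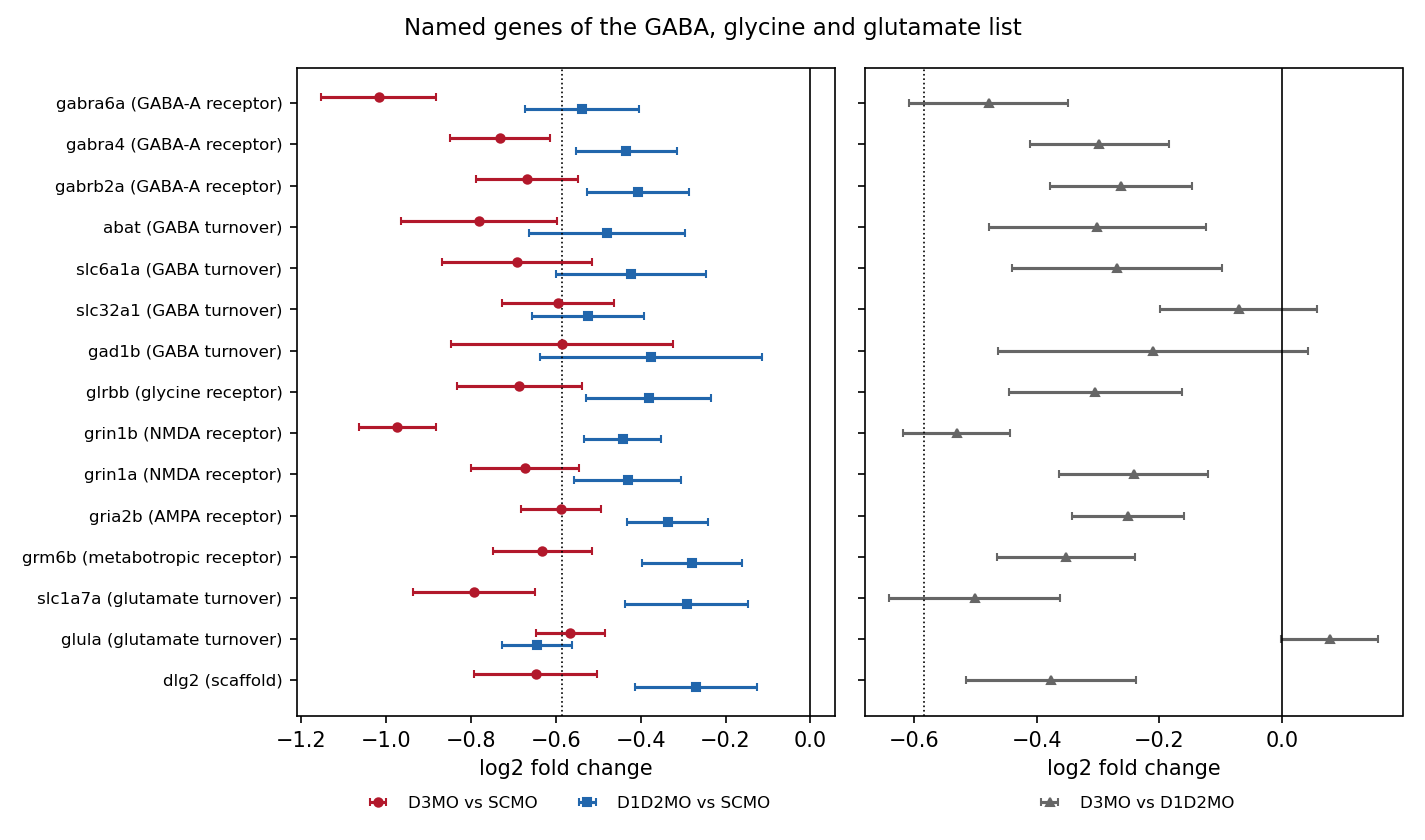
Log2 fold change with 95% intervals (x axes) of the 15 named genes of the list (rows, brightest probe, role in brackets), in the left panel for D3MO against SCMO (circles) and D1D2MO against SCMO (squares) and in the right panel for D3MO against D1D2MO (triangles), with a solid line at 0 and a dotted line at a 1.5-fold decrease. The lowest circles are gabra6a at -1.02 and grin1b at -0.97, and glula is the one triangle above 0, at 0.08 with an interval that includes 0.

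The 4 genes were not gathered at one end of the intensity range. They spanned average log2 intensities of 7.13 to 11.5, beside a median of 8.92 for the listed probes. The bright abat and the dimmer gabra4 differed by less than their standard errors in D3MO against SCMO.

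**Figure D4:**
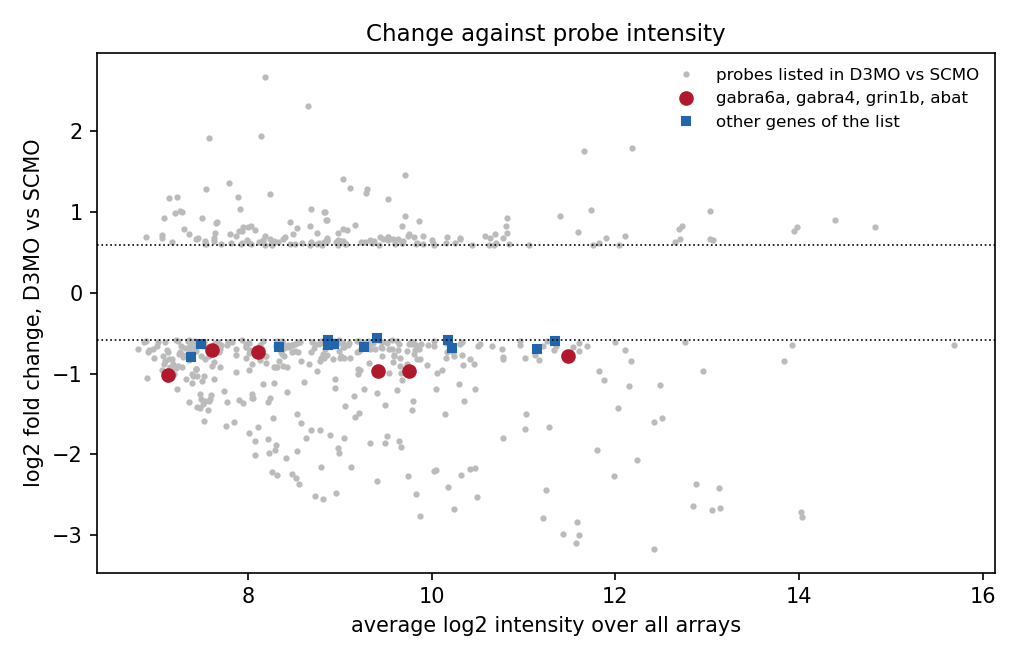
Log2 fold change in D3MO against SCMO (y axis) against the average log2 intensity over all arrays (x axis) for the 569 probes listed in that comparison (grey), the 6 probes of gabra6a, gabra4, grin1b and abat (circles) and the other 12 probes of the list (squares), with dotted lines at a 1.5-fold change in either direction. The circles lie between -1.02 and -0.71 over intensities of 7.13 to 11.5.

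The genes with the most similar pattern were sought among the named genes outside the list, by the distance between pairs of log2 fold changes in the knockdowns against SCMO, so the likeness rests on 2 values per gene. Nearest to gabra6a were rbp3 (distance 0.0504), gnao1b (0.0531) and samsn1b (0.0893). The gene rbp3 encodes the retinoid-binding protein of the photoreceptor matrix and gnao1b a G protein alpha subunit abundant in neurons. Nearest to gabra4 were tent5ab (0.00328), fxyd6 (0.0259) and sncb (0.0282), the last of which encodes beta-synuclein. Nearest to grin1b were fam163ab (0.0255), scpp5 (0.0319) and aqp9a (0.0658). The enzyme gene abat had as neighbours chac1 (0.0213), vamp2 (0.0257), which encodes the synaptic vesicle protein synaptobrevin, and camk2n2 (0.0301). Most of these distances are no larger than the standard errors of the values themselves, so the order among such neighbours is not resolved. Only some of these genes are described here, and no shared role is read from the likeness.

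Named markers of the cells in the head were, like all named genes, listed in at least 1 comparison, so their counts stand beside the 199 of 333 named genes that were lower in D3MO against SCMO and the 62 that were lower in D1D2MO against SCMO. Of 18 pan-neuronal markers 4 were named, and all 4 were lower in D3MO against SCMO with a median of -0.80, while in D1D2MO against SCMO 1 of 4 was lower, with a median of -0.48. Of 14 cerebellar markers 5 were named, and all 5 were lower in D3MO against SCMO with a median of -0.80. One of them is gabra6a, which was chosen by its value in that comparison. In D1D2MO against SCMO 1 of the 5 was lower past both thresholds, with a median of -0.54 and values from -0.61 to -0.06. The 4 named of 12 markers of GABAergic and glycinergic neurons were lower as well in D3MO against SCMO, with a median of -0.64, but 3 of them belong to the signalling list. In D1D2MO against SCMO 0 of these 4 were lower past both thresholds, with a median of -0.42. None of 7 markers of glutamatergic neurons could be named. The 8 named of 9 photoreceptor markers had a median of -2.73 in D3MO against SCMO, while 3 of 4 named muscle markers and 2 of 2 named erythroid markers were higher. The 2 named of 11 astroglia markers differed in sign in D3MO against SCMO, with gfap higher at 0.65 and glula at -0.57. The part of these cell types in the values of the 4 genes was not tested.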

How the data were processed

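The authors scanned the arrays with a GenePix instrument, removed spots at background level on every array, applied a normal-exponential background correction and loess within arrays, and fitted all arrays with limma, a version not given in the sources used here. Deposited tables held log2 fold changes, unadjusted p-values and, for listed probes, the authors' average log2 intensity, adjusted p-values, moderated t and log-odds; t is used here as a deposited score. These columns are the authors' own comparisons, and values per array were not analysed here. Standard errors were the log2 fold change divided by t, recovered from p with 7.79 degrees of freedom, which gave 95% intervals. Adjusted p-values were recomputed over 20080 probes (Benjamini-Hochberg), with 26 control spots kept, in Python 3.11.15 with numpy 2.4.6, pandas 2.3.3 and scipy 1.17.1, tested on simulated data. A gene was represented by its brightest listed probe.

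Named were the 4 genes with the 3 nearest genes of each, and every named gene of the signalling list. The members and lists were chosen with earlier results of these data known. Symbols came from RefSeq accessions in an annotation of assembly GRCz12tu, and 147 listed probes stayed unnamed. A result of the signalling list is not reported here, and its counts leave it out. Alternatives were another zero, the mean over probes, other thresholds and no dim probes. Only 4 pools per condition limit the precision.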

Additional observations from a re-analysis of the deposited data

Results flagged for a closer look

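In the direct comparison of the knockdowns all 6 probes had an adjusted p under 0.05, recomputed here by the Benjamini-Hochberg method over all 20080 probes from the unadjusted p-values of the deposited limma fit. By the same rule 11.9% of all probes and 191 of the 333 named genes were lower, and 113 of the named genes were higher. The 4 genes were selected on a related comparison that shares the D3MO pools, so the differences and their adjusted p are given as a description and no test is claimed. As D3MO minus D1D2MO on the log2 scale, gabra6a gave -0.48 (SE 0.0561, recomputed adjusted p = 0.00134) and gabra4 gave -0.30 (SE 0.0493, recomputed adjusted p = 0.00513). The 3 grin1b probes gave -0.53 (SE 0.0379, recomputed adjusted p = 0.00019), -0.44 (SE 0.0512, recomputed adjusted p = 0.0013) and -0.45 (SE 0.0635, recomputed adjusted p = 0.00266). The difference for abat was -0.30 (SE 0.0765, recomputed adjusted p = 0.026). None of these differences exceeded 1.5-fold.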

How the results depend on the processing

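No value changed sign under an alternative. Averaging the 3 probes of grin1b in place of its brightest gave -0.88 in D3MO against SCMO and -0.48 in D3MO against D1D2MO, each a shift of more than 1 standard error, and the other genes have 1 probe. Requiring a change beyond 1.5-fold in the test itself left 2 of the 4 genes in D3MO against SCMO, gabra6a and grin1b. The gene grin1b passed by its probes 1 and 2 and not by probe 3. The 4 genes were chosen by their values in D3MO against SCMO, with which the other comparisons share a condition. Nothing is therefore read from their counts under any of these rules. Of the 15 list genes this rule left 2 in D3MO against SCMO and 0 in D1D2MO against SCMO. Beside them, 77 and 8 of all 333 named genes were lower by the same rule in these comparisons. With the adjusted p alone, 4 of the 4 genes were lower in D1D2MO against SCMO and 4 in D3MO against D1D2MO, and of the 15 list genes 14 were lower in D1D2MO against SCMO and 12 in D3MO against D1D2MO, beside 175 and 191 of all 333 named genes. Centring on the median of all probes took 1 gene from the list's count in D3MO against SCMO (13 in place of 14), and leaving out dim probes, which drops gabra6a, left 11. Over all 333 named genes the same counts were 197 and 159, in place of 199. Leaving out pools or arrays could not be run from the values used here, so whether 1 pool decides a value was not tested. The authors fitted their linear models to the ratios of the channels on each array, so conditions sharing an array were already paired. No further paired analysis was possible because the values used here are the fit's summaries over all pools.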

Other observations

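Some list genes lie beside other listed genes in the gene order of assembly GRCz12tu, a look that was taken after the values were seen. Next to gabra6a lies gabrb2a, and both were lower in D3MO against SCMO, at -1.02 and -0.67. With 1 gene between it and gabra6a lies ccng1, a cyclin G gene, which went the other way at 1.80 (SE 0.141) in D3MO against SCMO. In D1D2MO against SCMO ccng1 stood at 0.31 (SE 0.141), with a 95% interval that included no change. The glycine receptor gene glrbb lies next to gria2b, and both were lower in D3MO against SCMO at -0.69 and -0.59. The vesicular GABA transporter gene slc32a1 lies next to aurka, a mitotic kinase gene at 0.95 (SE 0.143) in D3MO against SCMO.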
